A study of Mus musculus with 4 samples.

Results

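Protocadherins are cell adhesion proteins of the cadherin superfamily. Most of them are encoded by the alpha, beta and gamma clusters, which lie next to each other on mouse chromosome 18. In the alpha and gamma clusters each of many variable first exons has its own promoter and is spliced to a shared set of constant exons, so that each promoter yields a different extracellular domain on the same cytoplasmic tail. The beta genes are mostly intronless and have no constant exons. In neurons each cell uses a few of the variable promoters, a choice that involves the insulator protein CTCF, cohesin and promoter DNA methylation, while the C-type exons at the end of the alpha and gamma clusters are used more evenly between cells. The resulting combination serves self-recognition between neurites. Non-clustered protocadherins stand alone in the genome and include Pcdh8, the paraxial protocadherin of early mesoderm, Pcdh12 of endothelial cells and Pcdh19, a neural adhesion protein.

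The count table was searched for gene symbols that begin with Pcdh, which gave 45 of its 26301 rows: 6 alpha, 22 beta and 4 gamma rows and 13 non-clustered genes. A further 26 rows, 8 alpha and 18 gamma, carried no symbol in the table, but their gene identifiers belong to protocadherins in RefSeq. They were added under their RefSeq names and counted separately, which made 71 rows in all, with 14 in the alpha, 22 in the beta and 22 in the gamma cluster. In these mouse embryonic stem cells (ESCs) the comparison asks which protocadherin transcripts differ when REST is missing. REST is a repressor of neuronal genes that binds a DNA element called RE1.

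RNA was sequenced from 2 libraries of the WT line N6 and 2 of the REST-/- line N8, described by the submitters as biological replicates. Each genotype is 1 line, so genotype and line cannot be told apart. All 4 cultures were kept with LIF and serum on irradiated mouse embryonic fibroblast feeders, followed by passages on gelatin to remove the feeders. Between 22293966 and 30953863 reads were assigned to genes per library. Levels are given as CPM, counts scaled to library size with TMM factors, and a library with 0 counts for a gene allows a level of up to 0.0969 to 0.135 CPM (3 counts, counting error only). Whether fewer cells transcribed a gene or each cell held less of its RNA cannot be told apart in bulk RNA.

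The targeted gene, Rest, had 7908 and 6233 counts in WT against 4244 and 3890 in REST-/- (log2 fold change -0.52 ± 0.13 SE, edgeR adjusted p = 0.526). Transcripts of the gene were thus still counted in REST-/- libraries, both of which lay below both WT libraries. Pluripotency markers, 9 of 9 tested, summed to 4828 and 4688 CPM in WT against 4132 and 4249 in REST-/-. Both REST-/- libraries were below WT for Zfp42 (705 and 541 CPM against 258 and 226), Nanog and Klf4, above for Utf1, and overlapped WT for the other 5. REST-/- replicate 1 stood apart in the fibroblast list, whose 11 genes summed to 149 CPM there against 47.6 and 36.3 in WT and 35.1 in REST-/- replicate 2, with Lum at 0 in all 4 libraries and Dcn at 5 counts or fewer. This library was the highest for 6 of the 11 genes (Col1a1, Col1a2, Col3a1, Col6a1, Postn and Fbln2), while Thy1 (6.93 CPM), Col6a2 (2.36) and Loxl1 (3.91) were no higher there than in WT replicate 2 (7.06, 3.36 and 5.45). Primitive endoderm markers summed to 156 and 288 CPM in WT and 351 and 445 in REST-/-, with both REST-/- libraries above both WT libraries for 7 of 10 genes. Mesoderm markers summed to 13.0 and 14.6 CPM in WT and to 30.0 and 17.7 in REST-/-. Among them T had 35, 12, 386 and 118 counts in WT 1, WT 2, REST-/- 1 and REST-/- 2. Neural markers summed to 255 and 361 CPM in WT and 319 and 387 in REST-/-, and endothelial markers to 153 and 158 against 110 and 127. Most of the endothelial sum was Pecam1, at 124 and 137 CPM in WT against 85.6 and 113 in REST-/-.

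No protocadherin passed the test. Of the 45 rows with a symbol, 11 had enough counts to be tested (no alpha row, 1 beta, 4 gamma and 6 non-clustered), and the quasi-likelihood test of edgeR called 0 of them at an adjusted p below 0.05, as against 9 of 15444 genes (0.0583%, with 0.0518% higher and 0.00648% lower in REST-/-). Of the 26 rows without a symbol, 17 gamma rows were tested, also with 0 calls. Without pairing by replicate number, neither the exact tests with tag-wise (1.51% of all genes called) and common dispersion (2.22%) nor DESeq2 (1.54%) called any of these 28 rows. At an unadjusted p under 0.05 there was 1 row, Pcdhgc3, beside 6.71% of all tested genes. With 2 libraries against 2, the smallest two-sided p of an exact permutation test is 0.333, so none is given for the sums below. What follows describes the levels in each library.

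RE1 elements were looked for first, because they are the sequence through which REST binds. The motif was read from the majority base at each of 15 positions of published REST-bound sites in ESCs, which gave NGGNGCTGTCCNNNG, and both strands of the mm9 genome were searched. Each informative base occurred in 52.5% (position 15) to 98.0% (position 7) of those sites, so a bound site can fail the search. The share of sites that pass was not counted, and a missing match does not show that an RE1 is absent. A match at all 10 informative positions lay within 20 kb of a transcription start for 2 of 13 non-clustered genes and 0 of 22 beta genes, beside 13.5% of 22128 annotated genes. The non-clustered genes were Pcdh7, with the match in a coding exon 605 bp downstream of the nearest start, and Pcdh8, with the match 14272 bp upstream. Both are shown because no other non-clustered or beta protocadherin had one, 5′ to 3′ on the strand of the motif, with the matched informative bases in capitals.
Pcdh7 (mm9 chr5:58110935-58110963, minus strand): gggtagggGGcGCTGTCCgccGgccccaa
Pcdh8 (mm9 chr14:80185377-80185405, minus strand): gctgcggtGGcGCTGTCCaagGtccagcc

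The alpha cluster, from 37089939 to 37347311 on chromosome 18 of mm9, held 1 match at all informative positions, while the gamma cluster (37833989 to 38001527) and the beta cluster (37424652 to 37681073) held none. Allowing 1 mismatch gave 25 matches in the alpha cluster, 8 in the gamma cluster and 6 in the beta cluster, or 97.1, 47.8 and 23.4 per Mb, against 47.9 per Mb over the genome. Of the 25 in the alpha cluster, 11 lay in annotated exons, which in this cluster are similar copies of each other.

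The gamma cluster held most of the protocadherin counts and was higher in both REST-/- libraries. Its 22 rows summed to 1261 and 1215 counts in WT and to 1563 and 1370 in REST-/-, which is 40.7 and 45.4 CPM against 60.5 and 61.8. The genotypes did not overlap, with means of 43.0 ± 3.27 in WT and 61.2 ± 0.957 in REST-/- (SD, n = 2 each), a ratio of 1.42. Among single rows, 13 of 22 had both REST-/- libraries above both WT libraries, 1 had both below and 8 overlapped. Over all tested genes the shares were 16.5% above and 15.4% below. The fitted log2 fold change was positive for 19 of 21 tested gamma rows, with a median of 0.61, where it was positive for 49.2% of all tested genes with a median of -0.0047. The other tested genes of chromosome 18 had a median of 0.02 (361 genes). REST-/- replicate 2 alone lay above both WT libraries for 17 of 22 gamma rows, beside 31.6% of all tested genes. Fibroblast markers summed to 35.1 CPM in that library, and their part in the gamma levels was not tested. Primitive endoderm markers, at 156 and 288 CPM in WT against 351 and 445 in REST-/-, had the same order of genotypes as the gamma sum, and their part in it was not tested.

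**Figure D1:**
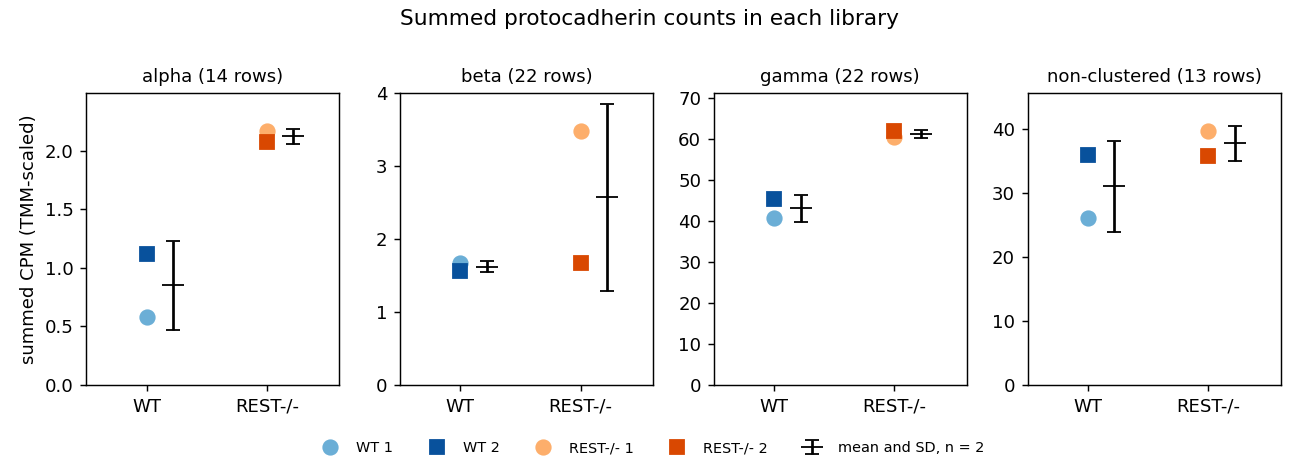
Summed TMM-scaled CPM of the alpha, beta, gamma and non-clustered protocadherin rows in each library, with a separate linear axis from 0 for each subgroup and black bars for the mean and SD of the 2 libraries of a genotype. Alpha and gamma sums lie higher in both REST-/- libraries, the beta sum is high in REST-/- replicate 1 alone (3.48 CPM), and the non-clustered sums overlap.

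Rows that carry a symbol in the table did not show the difference to the same extent. The 4 gamma rows with a symbol, Pcdhga1, Pcdhga2, Pcdhga10 and Pcdhga12, summed to 10.3 and 10.2 CPM in WT and 10.99 and 11.5 in REST-/-, a ratio of 1.10. Of these, both REST-/- libraries lay above WT only for Pcdhga2, at 51 and 47 counts in WT against 62 and 43 in REST-/-. The higher gamma sum therefore came mainly from the 18 rows named by their identifiers.

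Pcdhgc3, the first of the C-type exons of the cluster, had the most counts. It was at 397 and 408 counts in WT against 605 and 516 in REST-/-, with no overlap between genotypes after scaling (12.8 and 15.2 CPM against 23.4 and 23.3). The log2 fold change was 0.74 ± 0.20 SE (unadjusted p = 0.0178 and adjusted p = 0.608, edgeR), and it stayed between 0.61 and 0.86 when each library was left out. Pcdhgc3 held 35.6% of the gamma counts over the 4 libraries. Without it the cluster still summed to 27.9 and 30.1 CPM in WT and 37.1 and 38.6 in REST-/-, a ratio of 1.30.

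Of the other C-type rows, Pcdhgc4 was low in all libraries, with 11 and 4 counts in WT against 14 and 9 in REST-/- (0.88 ± 0.61 SE on the log2 scale, and 0.42 to 1.64 with a library left out, the highest without WT replicate 1). Pcdhgc5 had 19 and 34 counts in WT against 48 and 23 in REST-/-, so its genotypes overlapped. The 3 C-type rows together summed to 13.8 and 16.7 CPM in WT and 25.8 and 24.7 in REST-/-, a ratio of 1.66.

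The 12 A-type rows, named Pcdhga1 to Pcdhga12, summed to 20.8 and 22.1 CPM in WT and 26.3 and 28.8 in REST-/- (ratio 1.28), with 7 rows above WT and none below, beside 16.5% and 15.4% of all tested genes. Pcdhga11 had the most counts of the A-type rows in which the genotypes did not overlap, at 109 and 150 counts in WT against 149 and 169 in REST-/- (log2 fold change 0.55 ± 0.36 SE). For Pcdhga1, the first variable exon of the cluster, replicate 1 was above replicate 2 in each genotype, with 176 and 74 counts in WT against 111 and 77 in REST-/- (-0.12 ± 0.45 SE). Pcdhga12 had the opposite order, with 68 and 118 counts in WT against 79 and 101 in REST-/- (0.21 ± 0.47 SE). For both rows the libraries of a genotype differed more than the genotypes did.

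The 7 B-type rows summed to 6.17 and 6.61 CPM in WT and 8.36 and 8.35 in REST-/- (ratio 1.31). Pcdhgb6 had the largest fitted difference of the cluster, 1.27 ± 0.51 SE on the log2 scale, from 7 and 9 counts in WT against 21 and 12 in REST-/-. Pcdhgb1 had 14 and 9 counts in WT against 16 and 17 in REST-/- (0.80 ± 0.45 SE). Pcdhgb8, listed in RefSeq as a transcribed pseudogene, was the only gamma row with both REST-/- libraries below WT, with 34 and 32 counts in WT against 20 and 19 in REST-/- (-0.49 ± 0.37 SE).

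The rest of the A-type and B-type rows fell into 2 sets. In the first the genotypes did not overlap, and the fitted differences were 0.35 for Pcdhga2, 0.61 for Pcdhga4 and Pcdhga8, 0.67 for Pcdhga7, 0.70 for Pcdhga9 and Pcdhgb2 and 0.72 for Pcdhgb5 on the log2 scale, each with an SE of 0.33 to 0.44. Pcdhgb5, for example, had 31 and 22 counts in WT against 38 and 34 in REST-/-. Pcdhga6 belonged here by its order but had 10 counts or fewer in each library and was not tested. In the second set the genotypes overlapped, with 0.15 for Pcdhga3, 0.22 for Pcdhga5, 0.41 for Pcdhga10, 0.03 for Pcdhgb4 and 0.16 for Pcdhgb7. These rows are spread along the cluster, as the plot of gamma rows in chromosome order shows.

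**Figure D2:**
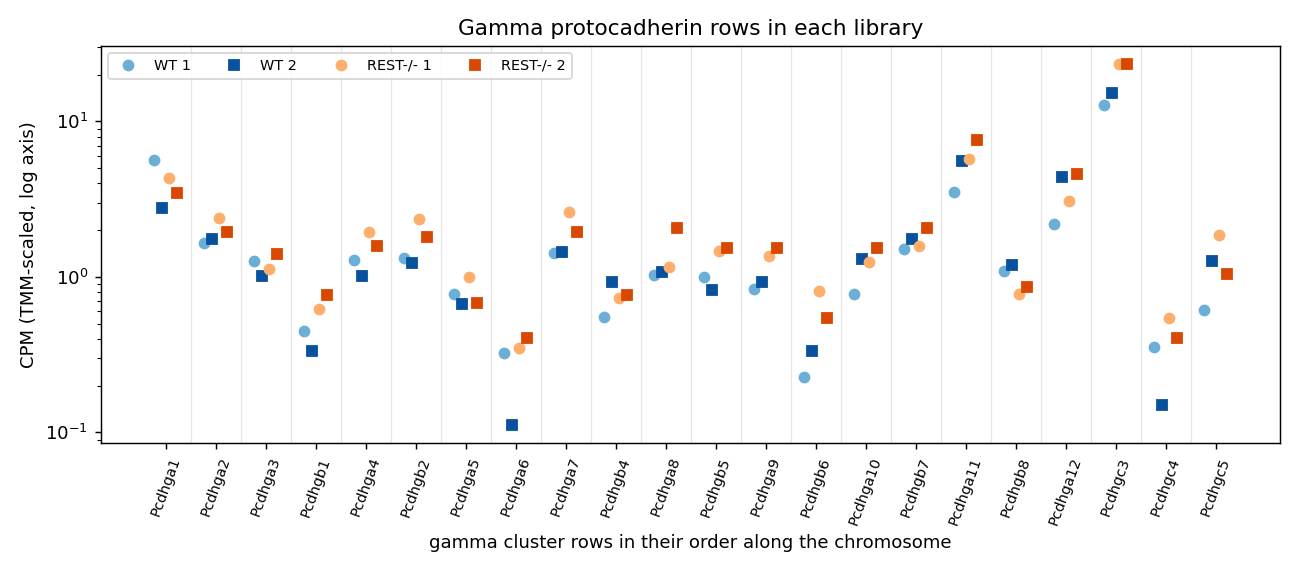
TMM-scaled CPM (log axis) of the 22 gamma cluster rows in each of the 4 libraries, in the order of the variable exons along the chromosome. Both REST-/- points lie above both WT points in 13 rows, from Pcdhga2 to Pcdhgc4, and below them only in Pcdhgb8.

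How reads of the constant exons were counted bears on these rows. From the mm9 annotation 9 gamma and 9 alpha transcripts were used, fewer than the rows of each cluster. Exon bases found in 2 or more of the gamma transcripts came to 2119 bp, next to first exons with a median length of 2595 bp. In the alpha transcripts such shared bases came to 2860 bp, next to first exons of 2394 bp. If reads of the shared exons had been given to every row, no gamma row could be near 0, but the lowest count of a gamma row was 3 (Pcdhga6 in WT replicate 2). Reads of the shared exons were thus not counted in every row, and whether any single row received them is not stated. Strand-specific counting is not stated, so sense reads and any antisense reads over the clusters cannot be told apart.

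The alpha cluster was near the limit of detection, and none of its 14 rows was tested. Its summed counts were 18 and 30 in WT against 56 and 46 in REST-/-, or 0.581 and 1.12 CPM against 2.17 and 2.08, with means of 0.851 ± 0.381 and 2.12 ± 0.0642 CPM (SD, n = 2 each). The genotypes did not overlap, and the ratio of the means was 2.49. Both REST-/- libraries were above both WT libraries in 7 rows and below in 0, beside 14.4% and 11.4% of the 5200 untested genes with at least 1 count. Among these 7 rows, Pcdha7 and Pcdhac1 were at 3 counts or fewer in every library. Primitive endoderm markers had the same order of genotypes, and their part in this was not tested.

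Most of the alpha counts came from a few rows. Pcdha12 had 6 and 6 counts in WT against 6 and 19 in REST-/-, so that its higher level rested on REST-/- replicate 2. Pcdha3 (3 and 1 against 11 and 3) and Pcdha4 (1 and 0 against 8 and 4) were highest in REST-/- replicate 1. Pcdhac2, a C-type exon, had 2 and 8 counts in WT against 4 and 3 in REST-/-, and Pcdha8 had 0 in all libraries. The rows Pcdha1 to Pcdha12 together had 16 and 21 counts in WT against 50 and 40 in REST-/-, while both C-type rows together had 2 and 9 against 6 and 6. In REST-/- replicate 2 alone, 7 rows lay above both WT libraries and 1 below, where 25.4% and 25.8% of untested genes did. At 0 to 19 counts a row, a difference in single alpha rows was not detectable at this depth.

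The beta cluster showed no difference that both REST-/- libraries shared. Its 22 rows summed to 52 and 42 counts in WT against 90 and 37 in REST-/-, or 1.68 and 1.57 CPM against 3.48 and 1.67. The excess was in REST-/- replicate 1 alone, the library with the high fibroblast sum, whose part was not tested. Only 11 of the 22 rows exceeded 3 counts in any library. Both REST-/- libraries lay above WT in 4 rows and below in 2, and in REST-/- replicate 2 alone 5 rows lay above and 5 below. Of untested genes 14.4% and 11.4% lay above and below with both libraries, and 25.4% and 25.8% with REST-/- replicate 2 alone, so the beta counts were near the background.

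Pcdhb22, at the far end of the beta cluster, was the only tested beta gene, with 4 and 11 counts in WT against 25 and 9 in REST-/- (log2 fold change 1.37 ± 0.78 SE, edgeR adjusted p = 0.979). It was 0.61 without REST-/- replicate 1 and 2.38 without WT replicate 2. Pcdhb17 had the same number of counts in total, 11 and 5 in WT against 25 and 8 in REST-/-, followed by Pcdhb2 with 3 and 5 against 8 and 5. In each of these 3 rows the highest value was in REST-/- replicate 1. Pcdhb14 had 6 and 3 counts in WT against 3 and 2 in REST-/-, and Pcdhb10 had 0 throughout. The other 17 beta rows had 7 counts or fewer in every library. Up to 11.99% of the 50-base windows of a beta gene occur in another beta gene as well, so a small part of these reads could belong to a neighbour.

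**Figure D3:**
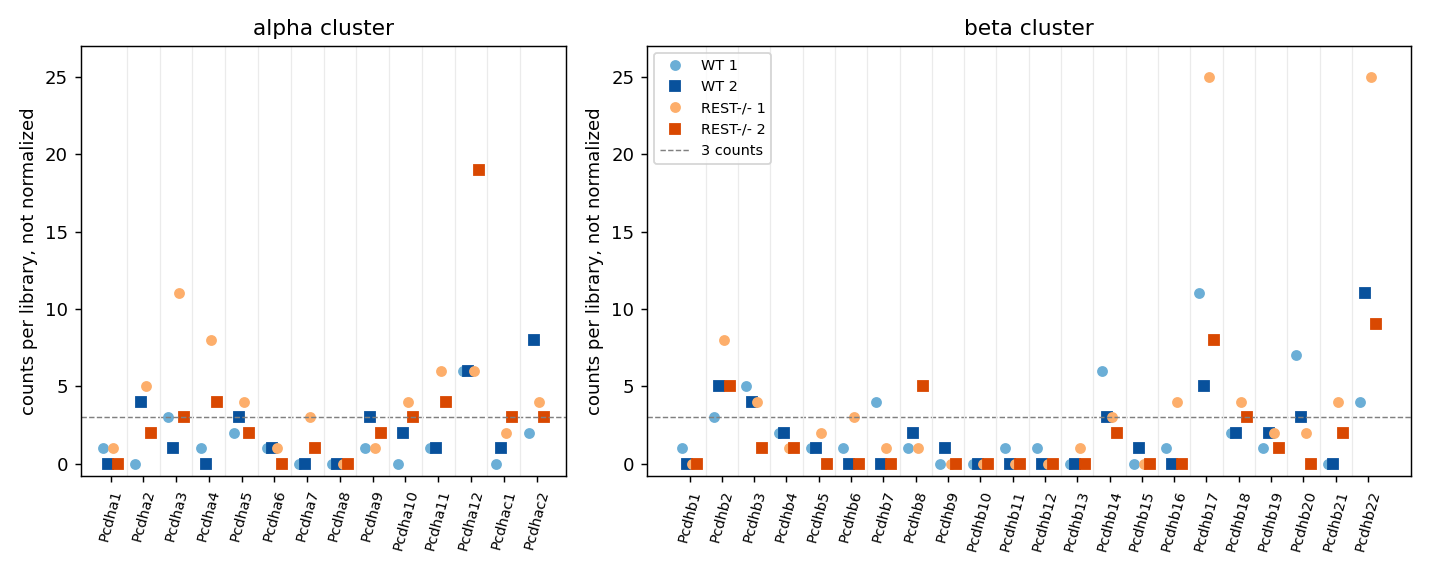
Counts per library, not normalized, of the 14 alpha rows and the 22 beta rows in their order along the chromosome, with a dashed line at 3 counts. Most points lie at or under that line, and the 2 highest beta values, 25 counts each in Pcdhb17 and Pcdhb22, are both from REST-/- replicate 1.

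Among the 13 non-clustered genes the genotypes overlapped in sum, with 26.0 and 36.0 CPM in WT and 39.6 and 35.8 in REST-/-. There were 3 genes with both REST-/- libraries above WT (Pcdh18, Pcdh7 and Pcdh11x, the last of which was at 3 counts or fewer), 3 with both below (Pcdh21, Pcdh19 and Pcdh12), and 7 that overlapped. The shares were 16.5% above and 15.4% below over tested genes, and 14.4% and 11.4% over untested ones. The median log2 fold change of the 6 tested genes was 0.39, with 4 positive and 2 negative. It was -0.22 without WT replicate 2 and -0.99 without REST-/- replicate 1, so its sign rested on single libraries. The sum was dominated by Pcdh1, which held 68.9% of the counts.

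Pcdh1, which lies on chromosome 18 beyond the gamma cluster (mm9 38345569 to 38371707), had 427 and 715 counts in WT against 655 and 671 in REST-/- (log2 fold change 0.46 ± 0.37 SE). WT replicate 1 was low and the other 3 libraries overlapped. Per length of its exons it had the highest level of the non-clustered and beta genes, 2.39 RPKM in WT and 3.29 in REST-/- (means of 2). The primitive endoderm sum and 6 of its 10 genes, among them Lama1, Col4a1 and Col4a2, were likewise lowest in WT replicate 1, while Gata6, Sox7 and Pdgfra were lowest in WT replicate 2 and Sox17 in REST-/- replicate 2. Leaving out each library gave Pcdh1 a log2 fold change of 0.06 to 1.01. The part of the markers in the Pcdh1 levels was not tested. Without Pcdh1 the non-clustered genes summed to 12.2 and 9.26 CPM in WT and 14.3 and 5.46 in REST-/-.

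Pcdh18, related to Pcdh10 and Pcdh19, had 20 and 32 counts in WT against 45 and 33 in REST-/- (log2 fold change 0.82 ± 0.46 SE, edgeR adjusted p = 0.969). After scaling, both REST-/- libraries were above both WT libraries, at 1.74 and 1.49 CPM against 0.646 and 1.19. Pcdh7, near a match at all 10 informative positions of the motif, was at 11 and 4 counts in WT against 51 and 8 in REST-/- and was not tested. Its higher level rested on REST-/- replicate 1, since REST-/- replicate 2 was at 0.361 CPM and WT replicate 1 at 0.355. The fibroblast sum and 6 of its 11 genes were also highest in REST-/- replicate 1, and their part in the Pcdh7 and Pcdh18 levels was not tested.

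Pcdh21, a photoreceptor cadherin now named Cdhr1, had the largest fitted difference of the tested non-clustered genes and lay lower in REST-/-. It had 132 and 72 counts in WT against 55 and 17 in REST-/-, with a log2 fold change of -1.25 ± 0.60 SE (edgeR adjusted p = 0.887). The genotypes did not overlap after scaling, at 4.26 and 2.69 CPM against 2.13 and 0.767, and replicate 1 was above replicate 2 in each. Leaving out each library gave -2.17 to -0.71. Pcdh19, on the X chromosome, had 112 and 96 counts in WT against 88 and 34 in REST-/- (-0.54 ± 0.47 SE). Its difference rested on REST-/- replicate 2, with 3.62 and 3.58 CPM in WT and 3.41 and 1.53 in REST-/-.

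Replicate 1 exceeded replicate 2 by far for Pcdh8 and Pcdh17, whatever the genotype. Pcdh8, the other gene near a match at all 10 informative motif positions, had 39 and 7 counts in WT against 39 and 9 in REST-/- (0.33 ± 0.97 SE). For Pcdh17, a synaptic protocadherin, the counts were 48 and 14 in WT against 63 and 11 in REST-/- (0.50 ± 0.93 SE). With a library left out, the fitted difference of each changed sign, from -0.91 to 1.86 for Pcdh8 and from -1.06 to 1.49 for Pcdh17. A difference of at least 2-fold between replicates, in this direction and in both genotypes, was found for 2 of 6 tested non-clustered genes, 0 of 21 gamma rows and 5.43% of all tested genes. Replicate 1 was likewise above replicate 2 in each genotype for the mesoderm marker T and for the fibroblast sum (47.6 and 36.3 CPM in WT, 149 and 35.1 in REST-/-). Within the fibroblast list Col6a2 and Loxl1 had the opposite order in both genotypes, and Col6a1, Dcn and Thy1 had it in WT only. Of the other mesoderm markers, Mesp1, at 7 counts or fewer, had replicate 1 above replicate 2 in both genotypes. Hand1 had the opposite order in both (2.29 and 2.95 CPM in WT, 2.63 and 3.48 in REST-/-). So did Tbx6 (1.001 and 1.008 CPM in WT, 0.697 and 0.813 in REST-/-). Mixl1 and Eomes had the opposite order in WT only, and Msgn1 was at 1 count or fewer. In the mesoderm sum replicate 1 was above replicate 2 in REST-/- (30.0 and 17.7 CPM) and not in WT (13.0 and 14.6). The part of these cells in the Pcdh8 and Pcdh17 levels was not tested.

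The remaining genes were close to the floor. Pcdh12 had 4 and 11 counts in WT against 2 and 2 in REST-/-. Among the 5 endothelial markers Cdh5, Kdr and Pecam1 also had both REST-/- libraries below WT, and Tek and Tie1 overlapped. In WT Cdh5 was at 1.07 and 1.01 CPM and Kdr at 2.58 and 1.64, while Pecam1, at 124 and 137, made up most of the endothelial sum. A link of these markers to Pcdh12 was not tested. Pcdh20 had 3 and 3 counts in WT against 12 and 1 in REST-/-, Pcdh9 had 2 and 4 against 7 and 3, and Pcdh10 had 5 and 4 against 5 and 0. Pcdh15 was at 1 count in WT replicate 2 and at 0 in the other libraries. For Pcdh9, Pcdh10, Pcdh11x, Pcdh15 and Pcdh20 no order of the genotypes can be read.

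**Figure D4:**
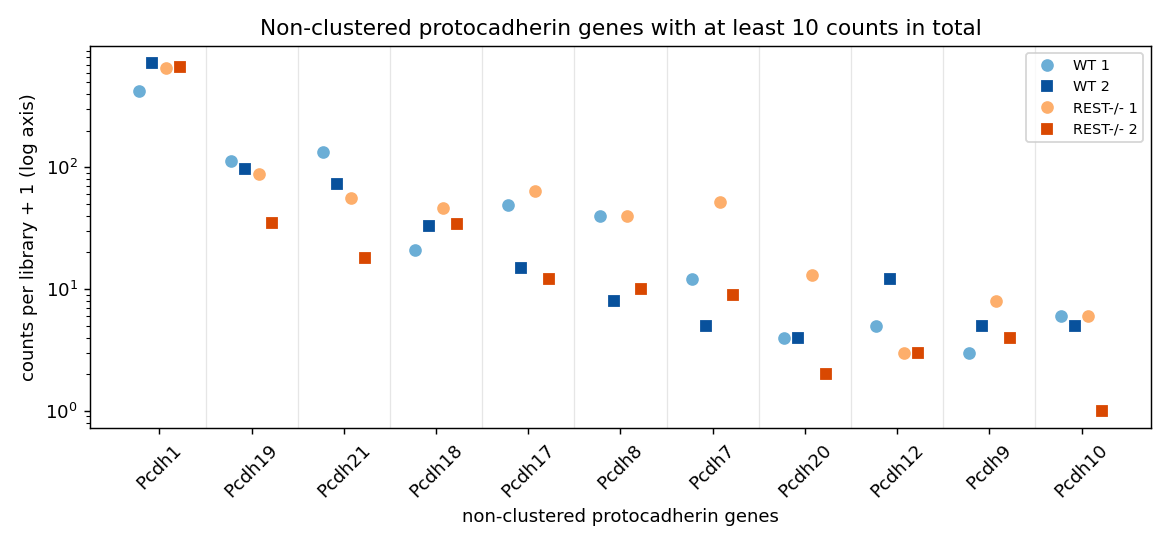
Counts per library plus 1 (log axis) of the 11 non-clustered protocadherin genes with at least 10 counts in total, ordered by mean CPM. Pcdh8 and Pcdh17 separate by replicate and not by genotype, and Pcdh21 and Pcdh19 have their lowest value in REST-/- replicate 2.

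Per length, the order of the tested non-clustered genes in WT was Pcdh1 (2.39 RPKM), Pcdh21 (0.808), Pcdh19 (0.350), Pcdh8 (0.190), Pcdh18 (0.178) and Pcdh17 (0.109), each a mean of 2 libraries. In REST-/- the levels were 3.29, 0.337, 0.240, 0.240, 0.313 and 0.154 RPKM in the same sequence of genes. Pcdh1 lay above Pcdh21 in every library, and from Pcdh21 downward neighbours in this order overlapped in at least 1 genotype. The beta gene with the highest mean, Pcdhb22, was at 0.0880 RPKM in WT and 0.224 in REST-/-. Pcdhb17 was close to it, at 0.0829 and 0.203, and the libraries of these genes overlapped.

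**Figure D5:**
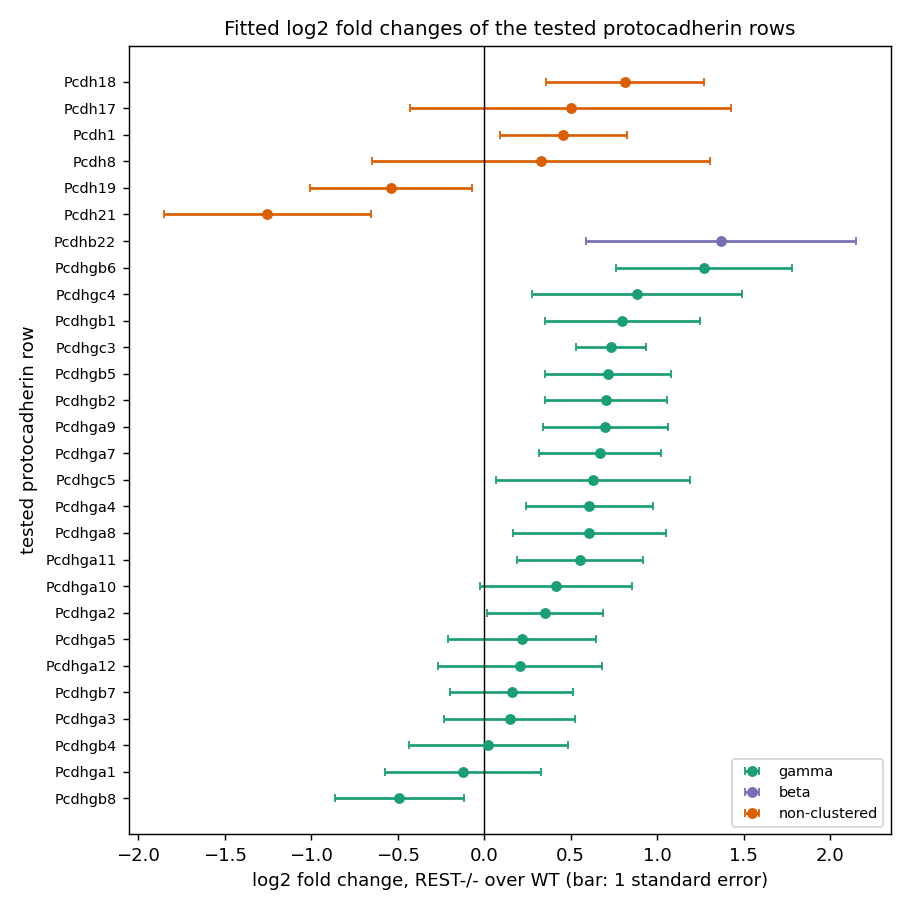
Fitted log2 fold changes (REST-/- over WT) of the 28 tested protocadherin rows, with bars of 1 standard error, for 21 gamma rows, 1 beta row and 6 non-clustered genes. Most gamma rows lie between 0 and 1, and Pcdh21 lies lowest at -1.25.

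Genes that act with protocadherins were followed in 3 lists, in which edgeR's quasi-likelihood test called 0 genes, with 1, 0 and 4 at an unadjusted p under 0.05 (6.71% of all tested genes). DESeq2 called 0, 0 and 1, the last being Celsr3 (1.54% of all genes). The exact test called 0, 0 and 1 with tag-wise dispersion (1.51%) and 0, 0 and 2 with common dispersion (2.22%). The first held 18 genes of promoter choice and silencing in the clusters (CTCF, cohesin, Smchd1, the DNA methyltransferases, Setdb1 and their partners), and all 18 were tested with a median log2 fold change of -0.01. There were 2 genes above and 2 below without overlap, beside 16.5% and 15.4% of all tested genes, and 14 overlapped. Dnmt3a, a de novo DNA methyltransferase, had 4208 and 4445 counts in WT against 6311 and 6044 in REST-/- (0.78 ± 0.16 SE, edgeR adjusted p = 0.406). Smc1a, a cohesin subunit, had 12453 and 8785 against 7751 and 5488 (-0.41 ± 0.18 SE, adjusted p = 0.818). Ctcf itself overlapped between genotypes, with 8667 and 6173 counts in WT against 6628 and 5180 in REST-/-.

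The second list held 16 signalling partners and processing enzymes, such as focal adhesion kinases and the WAVE complex, with 3 above and 1 below (16.5% and 15.4% of all tested genes) and a median of 0.05. Cdh2, N-cadherin, had 306 and 283 counts in WT against 569 and 284 in REST-/- (0.77 ± 0.33 SE), with REST-/- replicate 1 far above the rest. Adam10, the protease that sheds protocadherin ectodomains, had 1336 and 1048 against 839 and 577 (-0.49 ± 0.19 SE). In the third list, of 36 other cadherin superfamily members, 29 were tested, with 7 above and 6 below, beside the same 16.5% and 15.4%, and a median of 0.28. Cdh2 and Pcdh21, as Cdhr1, stand in it as well. Celsr3, a seven-pass cadherin of axon guidance, had 1123 and 1338 counts in WT against 8737 and 7832 in REST-/- (3.004 ± 0.21 SE, edgeR adjusted p = 0.0742). No tested protocadherin had a fitted difference of that size. Fat2, a giant cadherin, had 117 and 167 counts in WT against 49 and 39 in REST-/- (-1.45 ± 0.38 SE).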

How the data were processed

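RNA from 2 WT and 2 REST-/- ESC cultures was sequenced (TruSeq v2, 4 libraries mixed for sequencing). The values deposited by the authors are raw whole-number counts per gene identifier, not normalized. The submitters' processing notes name Subread, featureCounts and mm9. Versions, strand setting and the treatment of reads that overlap several genes are not given in the sources used here. Of the table, 368 rows without an identifier held no values and were left out, and 0 columns belonged to other samples. Library totals were 30953863, 27061056, 25461270 and 22293966 counts (WT 1, WT 2, REST-/- 1, REST-/- 2).

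From the counts, CPM and differences came from edgeR 4.0.16 under R 4.3.3. The fit used TMM factors, the filterByExpr filter and an unpaired quasi-likelihood test with a prior count of 0.125. Over 15444 genes p was adjusted after Benjamini and Hochberg, with a threshold of 0.05. Alternatives were edgeR's exact tests, DESeq2 1.42.0, other scalings and filters, a replicate block and each library left out. RPKM is TMM-scaled CPM per kb of annotated exons. Symbols missing from the table came from RefSeq (GRCm38.p6, names only), and positions and sequence from the mm9 genome with GENCODE M1. The motif was read from 1993 sites in 750 regions of a supplementary table. Named are non-clustered genes with 10 or more counts in total, the 4 rows of each cluster with the highest mean CPM, and the 4 tested rows with the largest non-overlapping difference. In each context list, those with adjusted p under 0.05 or else the 2 largest non-overlapping differences are named. The remaining gamma rows and Pcdha8, Pcdhb10, Pcdh11x, Pcdh15 and Ctcf were added after their values were seen. Members and lists were chosen with earlier results of these data known. The tests were checked on simulated counts.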

Additional observations from a re-analysis of the deposited data

How the results depend on the processing

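The replicate numbers are shared between genotypes, but no source says that they mark a culture day or passage, and with 2 pairs the samples share only a number (the differences between replicates correlated at r = 0.748 over genes in WT and REST-/-). With the replicate block, 1 gene with a symbol became significant, Pcdh21, lower (-1.31 on the log2 scale, adjusted p = 0.0189), and 1 gamma row without a symbol, Pcdhgc3, higher (0.74, adjusted p = 0.00438), beside 17.0% of all genes called under the block (8.47% higher, 8.5% lower). Of the context lists the block called 5 of 18, 3 of 16 and 10 of 29 genes. Without the block no setting called a protocadherin, and the lowest adjusted p was 0.173 (Pcdh21, exact test with common dispersion).

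The gamma median of 0.61 was 0.47 to 0.61 with each library left out, and 0.48 to 0.62 under the other settings, with 16 to 19 rows positive in each. Without a filter on low counts the alpha median was 1.34 over 13 rows and the beta median 0.21 over 21 rows. The single tested beta gene ranged from 0.61 to 2.38 with a library left out, 2.38 being without WT replicate 2. When each library had to reach 10 counts, no beta gene was left. The non-clustered median was -0.22 without WT replicate 2 and -0.99 without REST-/- replicate 1, in place of 0.39. Its range was -0.99 to 0.62 with a library left out. The cause was not tested. Chosen after the fibroblast markers were seen, leaving out REST-/- replicate 1 gave 1 alpha, 5 beta and 6 non-clustered rows below WT, and 7, 5, 17 and 4 rows above WT for alpha, beta, gamma and non-clustered rows. With 1 REST-/- library fewer, the shares of all tested genes also grew, to 31.6% above and 32.2% below (25.4% and 25.8% of untested genes). Of the 28 tested rows, 20 kept their sign in every setting (15 of 21 gamma, 4 of 6 non-clustered, 1 of 1 beta).

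The counts of alpha and beta rows were mostly at 3 or fewer, so depth limits both clusters.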

Other observations

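Of the 29 annotated genes within 500 kb of the 3 protocadherin clusters that are not protocadherins, 28 were tested, with a median log2 fold change of 0.10. Both REST-/- libraries were above both WT libraries for 9 of the 29 and below for 1, beside 16.5% and 15.4% of all tested genes. Rell2, a small membrane protein gene just beyond the gamma cluster (mm9 chromosome 18, 38115213 to 38118833), was chosen after its values were seen. It had 30 and 37 counts in WT against 255 and 202 in REST-/- (log2 fold change 3.01 ± 0.33 SE), which missed the threshold in edgeR's unpaired quasi-likelihood test (adjusted p = 0.113, and 0.0503 to 0.169 under its other scalings, filters and with a library left out). It passed in edgeR's exact tests (adjusted p = 3.19e-06 tag-wise and 1.83e-08 common), in DESeq2 (2.15e-09) and with the replicate block (0.000187). Hdac3, a histone deacetylase gene that lies between the gamma cluster and Rell2, had 3184 and 2822 counts in WT against 3861 and 3526 in REST-/- (0.57 ± 0.13 SE, edgeR adjusted p = 0.45). Taf7, an intronless gene for a TFIID subunit between the beta and gamma clusters, had 4794 and 2767 counts in WT against 3725 and 2205 in REST-/- (-0.08 ± 0.29 SE). In the next gene towards the gamma cluster, 3222401L13Rik, replicate 1 was also above replicate 2 in each genotype, with 180 and 67 counts in WT against 136 and 60 in REST-/-, as in Pcdhga1, the first gamma row.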
